A study of Mus musculus with 12 samples.

Results

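The 10 genes described here are targets of the transcription factor p53 and regulators of apoptosis: Mdm2, Cdkn1a, Ccng1, Gadd45a, Sesn1, Pmaip1, Bbc3, Bax, Trp53inp1 and Bcl2l11. They were taken by gene symbol from a table of read counts that lists 54532 genes, and all 10 were among the 14894 genes with enough reads to be tested. RNA-seq had been done on cultures of bone marrow from C57BL/6 mice of wild-type genotype, kept for 5 days in medium with GM-CSF and IL-6, cytokines that drive bone marrow cells towards immunosuppressive myeloid cells. The cultures held vehicle (0.1% DMSO), 10 µM IPA or 50 µM IPA, with 4 libraries in each of the 3 groups. IPA is indole-3-propionic acid, a metabolite that gut bacteria make from tryptophan. The study's mice were females between 8 and 14 weeks old, and the labels name no engineered allele and no treatment of the mice themselves. The medium with vehicle or IPA was renewed on day 3 according to the sample labels and every 2 days according to the methods. Neither source says whether the 4 libraries of a group came from separate mice or separate wells, so the p-values measure the spread between these libraries, which may be technical.

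Under stress, p53 accumulates and switches on genes that stop the cell cycle, genes that start apoptosis, and Mdm2, whose protein marks p53 for destruction and so closes a feedback loop. Apoptosis through mitochondria is set by the BCL2 family, in which BH3-only proteins such as PUMA (Bbc3), NOXA (Pmaip1) and BIM (Bcl2l11) neutralise the pro-survival members, and BAX opens the mitochondrial outer membrane. BIM is controlled by FOXO factors rather than mainly by p53, and it limits the lifespan of myeloid cells and lymphocytes. Pmaip1 and Bbc3 can also be switched on without p53 by the stress factors ATF4 and CHOP.

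The libraries held between 20451312 and 28038612 counted reads, and mitochondrial genes took between 0.674% and 1.28% of them. Levels are given as CPM, the reads of a gene scaled to a common library size with TMM factors over the 12 libraries, and replicates are listed in the order 1 to 4. A gene is called higher or lower where its adjusted p from edgeR's quasi-likelihood test, adjusted over all 14894 genes by the Benjamini-Hochberg method, is under 0.05. The weakest of the 10 genes, Bbc3, still had between 212 and 461 reads in each library, and the strongest, Cdkn1a, between 7769 and 13245. A bulk library cannot tell fewer cells of a type from less RNA per cell, and this holds for every level below.

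RefSeq promoter windows on GRCm38.p6 were at hand for 8 of the 10 genes, 13 windows in all, each running from 250 bases before a transcription start to 50 bases after it. Pmaip1 and Trp53inp1 had none. Each window was searched for the p53 element, which consists of 2 half-sites of 10 bases with 0 to 13 bases between them, for GTAAACA, which FOXO factors bind, and for TGATGNAA, which ATF4 and CHOP bind together, each on both strands. Below are the 250 bases before the start of Cdkn1a, Mdm2 and Ccng1, p53 targets that rose at 50 µM, of Bax, a p53 target that was not called, and of Bcl2l11, which fell. Each is printed 5′ to 3′ on the strand of its gene, and capitals mark p53 half-sites and GTAAACA.
Cdkn1a (chr17:29090729-29090978, plus strand): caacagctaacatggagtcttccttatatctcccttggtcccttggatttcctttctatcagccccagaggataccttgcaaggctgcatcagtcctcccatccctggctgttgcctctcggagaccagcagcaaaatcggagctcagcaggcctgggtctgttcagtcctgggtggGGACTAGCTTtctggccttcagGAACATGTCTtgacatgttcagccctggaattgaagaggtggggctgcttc
Mdm2 (chr10:117710759-117711008, minus strand): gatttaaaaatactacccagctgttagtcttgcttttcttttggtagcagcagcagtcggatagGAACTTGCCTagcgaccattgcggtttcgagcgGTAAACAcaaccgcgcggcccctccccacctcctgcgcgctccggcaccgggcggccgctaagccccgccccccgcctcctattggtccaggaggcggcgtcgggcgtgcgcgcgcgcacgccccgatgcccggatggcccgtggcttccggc
Ccng1 (chr11:40755287-40755536, minus strand): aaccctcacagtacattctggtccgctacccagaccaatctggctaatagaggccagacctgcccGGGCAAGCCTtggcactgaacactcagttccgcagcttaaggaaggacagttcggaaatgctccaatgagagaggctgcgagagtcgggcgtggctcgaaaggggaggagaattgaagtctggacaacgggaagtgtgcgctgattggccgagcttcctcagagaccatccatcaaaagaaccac
Bax (chr7:45466899-45467148, minus strand): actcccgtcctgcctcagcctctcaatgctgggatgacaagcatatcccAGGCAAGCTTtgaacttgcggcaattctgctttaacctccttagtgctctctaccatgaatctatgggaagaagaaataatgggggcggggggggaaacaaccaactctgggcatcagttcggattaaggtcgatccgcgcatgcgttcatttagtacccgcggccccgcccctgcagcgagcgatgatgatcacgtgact
Bcl2l11 (chr2:128125788-128126037, plus strand): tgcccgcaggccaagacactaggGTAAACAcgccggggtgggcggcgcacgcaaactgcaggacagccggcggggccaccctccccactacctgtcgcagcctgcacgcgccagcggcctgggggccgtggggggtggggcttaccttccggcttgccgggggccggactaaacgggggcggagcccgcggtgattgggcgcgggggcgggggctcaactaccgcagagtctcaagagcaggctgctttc

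Of the 13 windows, the one of Cdkn1a shown here was alone in holding a complete p53 element, with its half-sites starting 73 and 51 bases before the transcription start and 12 bases between them. Among all 32851 mouse promoter windows of the same length, 24 (0.0731%) held a complete element. A single half-site, the 10 capitals in Mdm2, Ccng1 and Bax, was found in 5 windows of 5 genes, against 8.00% of all windows. In Mdm2 it started 186 bases before the transcription start, in Ccng1 185 and in Bax 201. GTAAACA was found in 4 windows of 4 genes, Mdm2, Bbc3, Sesn1 and Bcl2l11, against 3.65% of all windows, and in Bcl2l11 it started 227 bases before the transcription start. TGATGNAA was in 0 of the 13 windows and in 3.97% of all windows. The p53 elements known from other work for Mdm2 and several of these genes lie in introns or farther upstream, outside such windows. These are matches of letters and no measurement of binding.

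At 10 µM IPA none of the 10 genes was called against vehicle. Their log2 fold changes lay between -0.14 and 0.10 and their adjusted p between 0.769 and 0.983, and 0 of the 10 had an unadjusted p under 0.05. DESeq2 and limma-voom also called 0 of the 10. The background was small: edgeR called 0.329% of all genes higher and 0.0806% lower at this dose. The 95% intervals bound what could have been missed, from -0.05 to 0.25 for Cdkn1a, from -0.09 to 0.18 for Mdm2 and, for the least precise gene, from -0.46 to 0.18 for Gadd45a. In all 10 genes the range of the 10 µM libraries overlapped that of the vehicle libraries, while 3.57% of all genes lay apart in the higher direction and 2.56% in the lower.

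At 50 µM, 6 of the 10 genes were higher than with vehicle (Pmaip1, Bbc3, Mdm2, Cdkn1a, Trp53inp1 and Ccng1), 1 was lower (Bcl2l11), and Gadd45a, Sesn1 and Bax were not called. Of all genes tested, 7.00% were called higher and 6.50% lower in this comparison. In the 7 called genes every 50 µM library lay outside the range of the vehicle libraries, as did 9.45% of all genes in the higher direction and 10.5% in the lower. The median log2 fold change of the 10 genes was 0.33, and that of all genes 0.01. The 10 genes were chosen with earlier results of these data known, so their contrast with all genes is a description and not a test. Against 10 µM, 8 genes were higher and 1 lower, with 7.52% of all genes called higher and 7.85% lower. In that comparison the groups did not overlap for the same 7 genes, 6 higher and 1 lower, against 9.43% and 10.9% of all genes. The comparisons of 50 µM with vehicle and of 50 µM with 10 µM share the 50 µM libraries and are not independent of each other.

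**Figure D1:**
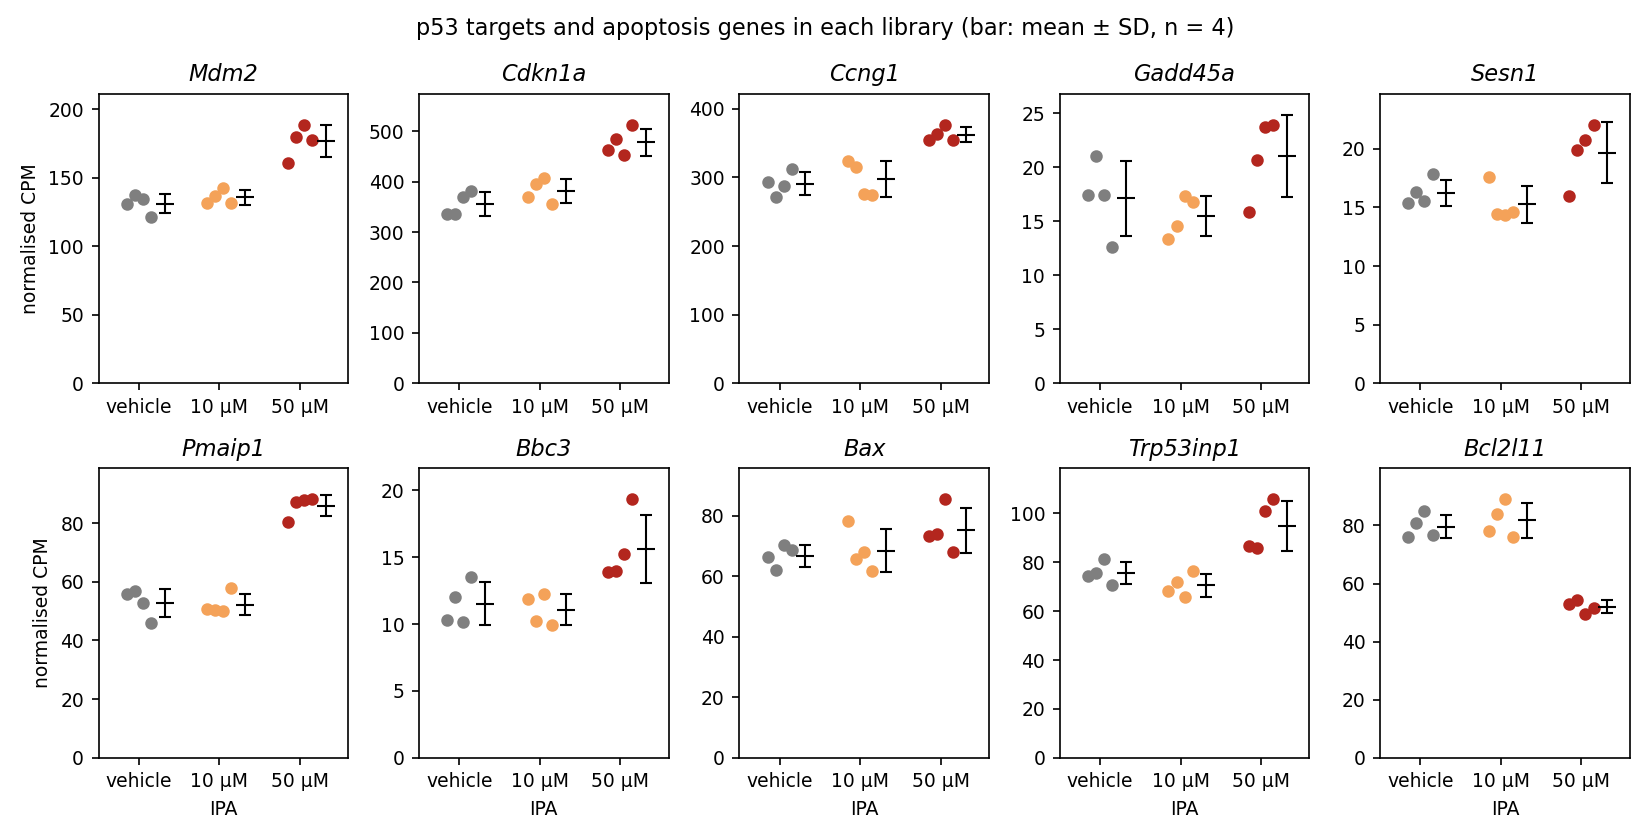
Each panel plots 1 gene, with its TMM-normalised CPM on the vertical axis from 0 and the 3 groups on the horizontal axis. Each point is a library, and the black bar gives the mean ± SD of the 4 libraries. In Pmaip1 the 50 µM libraries stand between 80.5 and 88.2 CPM, above all others, and in Bcl2l11 between 49.4 and 54.4 CPM, below all others.

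Mdm2 closes the p53 feedback loop, and it lies on chr10:117688875-117710758 (minus strand, GRCm38). Its levels with vehicle were 131.0, 137.3, 134.3 and 121.6 CPM, at 10 µM 131.8, 136.5, 142.3 and 131.3 CPM, and at 50 µM 160.5, 179.6, 188.7 and 177.1 CPM. The vehicle and 10 µM libraries thus filled the same range, and all 4 of the 50 µM libraries lay above it. Against vehicle Mdm2 was 1.35-fold higher at 50 µM (log2 fold change 0.44 ± 0.07 SE, adjusted p = 0.00165). Against 10 µM it was 1.31-fold higher (log2 fold change 0.39 ± 0.07 SE, adjusted p = 0.00088). Leaving out any 1 library left both calls in place, with an adjusted p of at most 0.0102 against vehicle.

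Of the genes that act on the cell cycle and on growth, Cdkn1a codes for p21, the inhibitor of cyclin-dependent kinases through which p53 arrests cells, and lies on chr17:29090976-29100727 (plus strand). Its levels were 335.5, 335.5, 370.3 and 380.7 CPM with vehicle, 368.9, 396.0, 407.4 and 355.6 CPM at 10 µM, and 462.1, 485.0, 453.2 and 513.4 CPM at 50 µM. The 10 µM libraries straddled the upper end of the vehicle range, and every 50 µM library was higher than all 8 others. At 50 µM Cdkn1a was 1.35-fold higher than with vehicle (log2 fold change 0.44 ± 0.07 SE, adjusted p = 0.0018) and 1.26-fold higher than at 10 µM (0.33 ± 0.06 SE, adjusted p = 0.00268). An antisense gene, AC167363.2, overlaps Cdkn1a, but it had between 8 and 45 reads in each library.

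Ccng1 codes for cyclin G1, which brings the phosphatase PP2A to the MDM2 protein, and lies on chr11:40748552-40755311 (minus strand). Its levels were 293.0, 271.4, 287.0 and 311.8 CPM with vehicle, 323.9, 315.4, 276.0 and 274.4 CPM at 10 µM, and 354.3, 363.4, 377.1 and 355.0 CPM at 50 µM. The 10 µM libraries fell into a higher and a lower pair, but even the higher pair stayed below all 50 µM libraries. The difference at 50 µM was 1.25-fold against vehicle (log2 fold change 0.33 ± 0.07 SE, adjusted p = 0.0072) and 1.22-fold against 10 µM (0.29 ± 0.07 SE, adjusted p = 0.0082).

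Gadd45a, which codes for a sensor of DNA damage and stress, lies on chr6:67035096-67037457 (minus strand). It was measured at 17.39, 21.04, 17.46 and 12.6 CPM with vehicle, at 13.4, 14.56, 17.33 and 16.75 CPM at 10 µM, and at 15.87, 20.65, 23.77 and 23.96 CPM at 50 µM. The 3 groups overlapped, since replicate 1 of the 50 µM group lay inside both other ranges. Against vehicle its log2 fold change of 0.31 ± 0.16 SE (95% interval -0.03 to 0.65) was not called (adjusted p = 0.222). Against 10 µM it was called, with a log2 fold change of 0.45 ± 0.13 SE (adjusted p = 0.0299). That call was lost without 10 µM replicate 1 or 2 (adjusted p = 0.064 and 0.0847) and without 50 µM replicate 2, 3 or 4 (0.0595, 0.0788 and 0.102), and in the fit of all 12 libraries (0.0676).

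Sesn1 codes for sestrin 1, which restrains the growth kinase complex mTORC1, and lies on chr10:41809935-41908424 (plus strand). Its levels were 15.42, 16.29, 15.54 and 17.84 CPM with vehicle, 17.59, 14.47, 14.33 and 14.65 CPM at 10 µM, and 16.01, 19.95, 20.72 and 22.08 CPM at 50 µM. Replicates 2 to 4 of the 50 µM group lay above all other libraries, and replicate 1 lay among them. Against vehicle the log2 fold change of 0.28 ± 0.11 SE (95% interval 0.04 to 0.52) was not called (adjusted p = 0.112), and it was called without 50 µM replicate 1 (adjusted p = 0.0383). Against 10 µM the log2 fold change was 0.37 ± 0.11 SE (adjusted p = 0.0375). This call was lost without 10 µM replicate 2, 3 or 4 (adjusted p = 0.102, 0.095 and 0.0763), without 50 µM replicate 2, 3 or 4 (0.0845, 0.0771 and 0.118), and with a block for replicate numbers (0.0674). Few reads lie on the genes that overlap Gadd45a and Sesn1, with at most 12 for E230016M11Rik and at most 9 for 9930024M15Rik in a library.

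Among the genes that act in apoptosis, Pmaip1 codes for the BH3-only protein NOXA, which neutralises MCL1, and lies on chr18:66458533-66465565 (plus strand). It showed the largest rise of the 10 genes. Its levels were 55.76, 56.74, 52.75 and 46.06 CPM with vehicle, 50.69, 50.27, 50.2 and 57.76 CPM at 10 µM, and 80.51, 87.18, 87.77 and 88.18 CPM at 50 µM. The lowest 50 µM library stood well above the highest of the other 8. At 50 µM Pmaip1 was 1.64-fold higher than with vehicle (log2 fold change 0.71 ± 0.08 SE, adjusted p = 9.76e-05) and 1.65-fold higher than at 10 µM (0.72 ± 0.07 SE, adjusted p = 5.33e-06). Its adjusted p against vehicle was at most 0.00095 with any 1 library left out.

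Bbc3 codes for PUMA, a BH3-only protein that binds all pro-survival members of the family, and lies on chr7:16308393-16318205 (plus strand). Its levels were 10.28, 12.02, 10.17 and 13.55 CPM with vehicle, 11.91, 10.26, 12.22 and 9.931 CPM at 10 µM, and 13.92, 13.95, 15.23 and 19.35 CPM at 50 µM. The lowest 50 µM library lay just above the highest vehicle library, and replicate 4 of the 50 µM group was the highest of all 12. Against vehicle Bbc3 was 1.36-fold higher (log2 fold change 0.45 ± 0.14 SE, adjusted p = 0.0449). The call against vehicle held in 1 of the 8 fits that left out a library, that without vehicle replicate 4. It was lost without vehicle replicate 1, 2 or 3 (adjusted p = 0.127, 0.0597 and 0.133), without 50 µM replicate 1, 2, 3 or 4 (0.0519, 0.0617, 0.085 and 0.143), and with limma-voom (0.0509). Against 10 µM the log2 fold change was 0.50 ± 0.13 SE (adjusted p = 0.0144), and this call was lost without 50 µM replicate 4 (adjusted p = 0.0557).

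Bax, the gene of the pore-forming effector on which BH3-only proteins converge, lies on chr7:45461697-45466898 (minus strand). Its levels were 66.23, 62.01, 70.26 and 68.83 CPM with vehicle, 78.42, 65.56, 68.02 and 61.88 CPM at 10 µM, and 73.19, 74.03, 85.49 and 68.07 CPM at 50 µM. All 3 groups overlapped. Bax was not called in any comparison, with a log2 fold change of 0.18 ± 0.08 SE against vehicle at 50 µM (95% interval -0.00 to 0.36, adjusted p = 0.189) and of 0.14 ± 0.09 SE against 10 µM (95% interval -0.05 to 0.32, adjusted p = 0.32). The intervals allow a rise as large as that of Ccng1 and are below the rise of Pmaip1. Gm45808, which overlaps Bax on the same strand, had 0 reads in every library.

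Trp53inp1 codes for a nuclear protein that helps p53 switch on its apoptosis targets, and lies on chr4:11156431-11174379 (plus strand). Its levels were 74.21, 75.55, 81.37 and 70.61 CPM with vehicle, 68.35, 72.09, 65.65 and 76.34 CPM at 10 µM, and 86.52, 85.82, 100.8 and 105.8 CPM at 50 µM. Every 50 µM library lay above all others, in a lower and a higher pair. The rise was 1.26-fold against vehicle (log2 fold change 0.34 ± 0.09 SE, adjusted p = 0.0204) and 1.35-fold against 10 µM (0.43 ± 0.08 SE, adjusted p = 0.00215). Without vehicle replicate 1 or 50 µM replicate 3 or 4 the call against vehicle was lost (adjusted p = 0.0625, 0.0601 and 0.0716), and that against 10 µM held in all 8 such fits.

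Bcl2l11, which codes for BIM, lies on chr2:128126038-128162547 (plus strand) and was the 1 gene of the 10 that fell. Its levels were 76.21, 80.78, 84.9 and 76.65 CPM with vehicle, 77.98, 83.85, 89.08 and 76.06 CPM at 10 µM, and 52.88, 54.37, 49.44 and 51.7 CPM at 50 µM. The 8 vehicle and 10 µM libraries shared one range, and the 50 µM libraries formed a tight group below it. Against vehicle the level was 0.658 times as high (log2 fold change -0.60 ± 0.07 SE, adjusted p = 0.00014) and against 10 µM 0.639 times (-0.65 ± 0.07 SE, adjusted p = 1.68e-05). Leaving out any 1 library kept both calls, with an adjusted p of at most 0.00118 against vehicle.

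**Figure D2:**
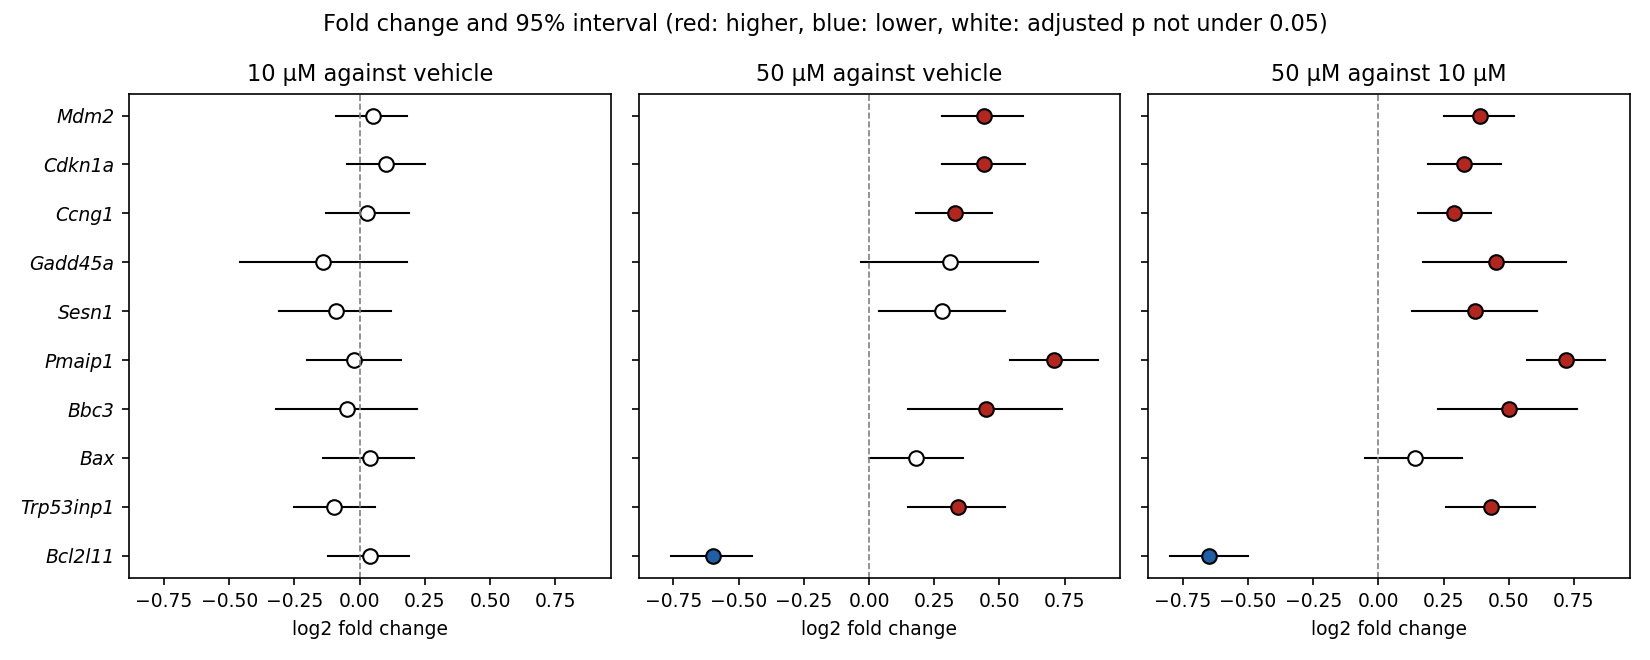
The 3 panels plot the log2 fold change of each gene (horizontal axis) in the 3 comparisons named above them. Points are edgeR estimates and lines their 95% intervals, filled red where called higher, blue where called lower and white where not called. All 10 intervals include 0 in the left panel, and at 50 µM against vehicle the points run from -0.60 for Bcl2l11 to 0.71 for Pmaip1.

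To set the genes against each other, CPM was divided by the length of the union of each gene's exons in GENCODE M21. With vehicle, Cdkn1a had the highest level per length, 100.1 ± 6.61 CPM per kb (SD, n = 4), followed by Ccng1 with 82.8 ± 4.76, Bax with 42.4 ± 2.30, Mdm2 with 25.8 ± 1.34 and Pmaip1 with 19.3 ± 1.77 CPM per kb. Lower levels were those of Trp53inp1 (11.7 ± 0.69 CPM per kb), Bcl2l11 (9.92 ± 0.51), Gadd45a (9.71 ± 1.96), Bbc3 (5.42 ± 0.76) and Sesn1 (4.09 ± 0.28). Gadd45a overlapped both Bcl2l11 and Trp53inp1 within 1 SD, and the other neighbours in this order did not overlap. At 50 µM the levels per length of Bcl2l11 (6.49 ± 0.26 CPM per kb) and Bbc3 (7.35 ± 1.21) overlapped within 1 SD, and so did those of Gadd45a (11.9 ± 2.14) and Trp53inp1 (14.6 ± 1.56) and of Pmaip1 (31.5 ± 1.33) and Mdm2 (34.7 ± 2.32). Isoforms that use only some of the exons would raise a gene's true level per length, so the order is approximate.

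Of p53 and its regulators, 17 genes were tested. Against vehicle, 1 of them was called higher at 50 µM and 2 lower, and the median log2 fold change was -0.01. Of all genes tested, 7.00% were called higher and 6.50% lower in this comparison. These shares are the background for the counts of each list below at 50 µM against vehicle. Trp53, the gene of p53, was measured at 149.6, 134.7, 137.6 and 149.9 CPM with vehicle and at 128.5, 122.1, 114.5 and 112.0 CPM at 50 µM. All 50 µM libraries thus lay below all vehicle libraries, with a log2 fold change of -0.25 ± 0.07 SE (adjusted p = 0.0372). That call was lost without vehicle replicate 1 or 3 (adjusted p = 0.092 and 0.075), without 50 µM replicate 2, 3 or 4 (0.0678, 0.0778 and 0.112) and with the replicate block (0.0603). Mdm4, the partner of MDM2 in holding p53 down, had a log2 fold change of 0.45 ± 0.18 SE against vehicle (adjusted p = 0.116, or 0.00775 without vehicle replicate 2 and 0.0114 with no filter) and was called higher against 10 µM (0.67 ± 0.13 SE, adjusted p = 0.00229).

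Among 32 other well-known p53 targets, 11 were called higher at 50 µM against vehicle and 3 lower. Their median log2 fold change was 0.21, beside 0.01 over all genes. The largest rise was that of Gdf15, a secreted stress cytokine, from 1.89, 2.115, 2.194 and 0.6358 CPM with vehicle to 6.445, 8.348, 11.94 and 12.67 CPM at 50 µM (log2 fold change 2.54 ± 0.31 SE, adjusted p = 0.000165). Psrc1, a microtubule protein of the spindle, rose by 1.09 ± 0.16 SE on the log2 scale (adjusted p = 0.000585) and the polo-like kinase Plk2 by 1.00 ± 0.12 SE (adjusted p = 0.000168). Zmat3, which codes for an RNA-binding protein, rose by 0.54 ± 0.09 SE (adjusted p = 0.00198) and Dcxr, a sugar reductase gene, by 0.77 ± 0.12 SE (adjusted p = 0.00102). Steap3, a metalloreductase gene, fell by 0.65 on the log2 scale (SE 0.14, adjusted p = 0.00715), and the death receptor gene Fas had a log2 fold change of 0.11 ± 0.10 SE (adjusted p = 0.516). At 10 µM edgeR and limma-voom called 0 of the 32 and DESeq2 called 2, and 7 had an unadjusted p under 0.05. Plk2 at 10 µM had a log2 fold change of 0.52 ± 0.14 SE against vehicle (adjusted p = 0.185, DESeq2 0.0267, no filter 0.0319), with all 4 libraries above the vehicle range.

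Gdf15, Sesn2 and Ddit4 stand both in this list and in a list of 13 genes of the stress response run by ATF4 and CHOP. Without them, 8 of 29 p53 targets were called higher and 3 lower, and the median log2 fold change was 0.11. Of the 13 ATF4 and CHOP genes, 12 were called higher at 50 µM against vehicle and 0 lower, with a median of 0.68. Atf4 rose by 0.50 ± 0.08 SE on the log2 scale (adjusted p = 0.000851), Ddit3, the gene of CHOP, by 0.99 ± 0.17 SE (0.00199), Trib3 by 1.33 ± 0.17 SE (0.000284) and Chac1 by 1.02 ± 0.17 SE (0.00143). These 4 genes had log2 fold changes between -0.13 and 0.09 at 10 µM, and none of the 13 was called there by edgeR or limma-voom, with 1 called by DESeq2 and 2 at an unadjusted p under 0.05. Those 2 genes were Atf3 and Vldlr, in which the 10 µM libraries stood above all vehicle libraries and overlapped the 50 µM libraries. Atf3, the gene of a stress-induced transcription factor, lay between 48.54 and 66.95 CPM with vehicle, between 71.0 and 90.48 CPM at 10 µM and between 68.5 and 73.65 CPM at 50 µM. Its log2 fold change at 10 µM was 0.56 ± 0.11 SE (edgeR adjusted p = 0.0712, DESeq2 0.000926, all 12 libraries 0.0123, no filter 0.0048, without vehicle replicate 3 0.0222), and at 50 µM 0.40 ± 0.10 SE (adjusted p = 0.018, without vehicle replicate 1 0.0661, without 50 µM replicate 4 0.0568). Vldlr, a lipoprotein receptor gene, had log2 fold changes of 0.65 ± 0.19 SE at 10 µM (adjusted p = 0.244) and 0.68 ± 0.21 SE at 50 µM (adjusted p = 0.0475), and the latter call was lost without any 1 of 6 libraries, vehicle replicates 1 to 3 and 50 µM replicates 2 to 4 (0.0502 to 0.161). Against 10 µM, 10 of the 13 were higher and 0 lower. Tnfrsf10b, a death receptor gene that both p53 and CHOP can switch on, rose by 0.50 ± 0.10 SE at 50 µM against vehicle (adjusted p = 0.00596). It is not in the list of 13 and is 1 of the 8 higher genes among the 29 p53 targets.

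In the remaining BCL2 family, 7 pro-survival genes were tested. At 50 µM against vehicle 3 of them were called higher and 0 lower, beside 7.00% and 6.50% of all genes. Bcl2, the founding pro-survival gene of the family, was measured at 20.57, 18.85, 19.61 and 15.82 CPM with vehicle, at 18.83, 22.6, 20.79 and 21.88 CPM at 10 µM and at 33.2, 33.28, 32.75 and 36.26 CPM at 50 µM. The 50 µM libraries stood clear of both other groups (log2 fold change against vehicle 0.86 ± 0.09 SE, adjusted p = 7.76e-05). The other 2 called genes, Bcl2a1b and Bcl2a1d, are near-identical copies of each other and of Bcl2a1a, and how their shared reads were split is uncertain. Mcl1, whose protein NOXA binds, had a log2 fold change of -0.19 ± 0.07 SE against vehicle (adjusted p = 0.105, DESeq2 0.0457, all 12 libraries 0.0365) and was called lower against 10 µM (-0.26 ± 0.06 SE, adjusted p = 0.00681). Of 7 further pro-apoptotic genes tested, edgeR, DESeq2 and limma-voom called 0 at 50 µM against vehicle, and 3 had an unadjusted p under 0.05. Against 10 µM the same tools called 2 of them lower, Bnip3 (-1.27 ± 0.15 SE, edgeR adjusted p = 3.03e-05) and Bnip3l (-0.33 ± 0.06 SE, adjusted p = 0.00253). The vehicle libraries varied widely in Bnip3, from 28.54 to 88.5 CPM, and overlapped the 50 µM libraries at 33.4 to 45.7 CPM (log2 fold change -0.68 ± 0.28 SE, adjusted p = 0.13, with no filter 0.00291, without vehicle replicate 1 0.0169). Bak1, the gene of the other pore-forming effector, had a log2 fold change of -0.02 ± 0.08 SE (95% interval -0.19 to 0.15, adjusted p = 0.909).

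Downstream of the mitochondria, 17 genes of the apoptosome, the caspases and their inhibitors were tested. At 50 µM against vehicle 2 of them were called higher and 3 lower, beside 7.00% and 6.50% of all genes. Casp2 fell from 62.45, 60.26, 55.39 and 55.16 CPM with vehicle to 36.96, 36.1, 39.35 and 38.48 CPM (log2 fold change -0.62 ± 0.07 SE, adjusted p = 0.000165). The executioner caspase gene Casp6 fell by 0.63 on the log2 scale (SE 0.10, adjusted p = 0.000816), and Apaf1, the scaffold of the apoptosome, by 0.34 (SE 0.07, adjusted p = 0.00762). Casp8, the initiator caspase of death receptors, had a log2 fold change of -0.06 ± 0.07 SE (adjusted p = 0.612). Of 10 death receptor genes and adaptors tested, 1 was called higher (Tnfrsf10b) and 2 lower, beside the same shares of all genes. Apaf1, Fas and Tnfrsf10b are also counted among the other p53 targets.

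Another list holds 11 tested genes that belong to the families of the 10 genes or code for kinase inhibitors of the separate INK4 group. At 50 µM against vehicle 3 of them were called higher and 2 lower, beside 7.00% and 6.50% of all genes. Sesn2, a relative of Sesn1 and a shared target of p53 and ATF4, is also counted in the p53 and ATF4 lists above. It rose from 73.3, 75.25, 77.07 and 73.16 CPM to 97.36, 108.9, 102.4 and 112.8 CPM (log2 fold change 0.50 ± 0.07 SE, adjusted p = 0.0005). Gadd45g rose by 0.77 ± 0.18 SE (adjusted p = 0.0124), and the INK4 gene Cdkn2b by 1.05 ± 0.20 SE (adjusted p = 0.00383) at between 2.11 and 6.59 CPM. Another INK4 gene, Cdkn2c, moved the other way, from between 21.18 and 26.19 CPM with vehicle to between 16.06 and 17.75 CPM at 50 µM (log2 fold change -0.42 ± 0.10 SE, adjusted p = 0.0109). Trp53inp2, the relative of Trp53inp1, fell by 0.22 on the log2 scale (SE 0.07, adjusted p = 0.041), a call lost with no filter (adjusted p = 0.0828), with the replicate block (0.0842) and without any 1 of 6 libraries, vehicle replicates 1 to 3 and 50 µM replicates 2 to 4 (0.0511 to 0.0979).

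p21 holds down many cell cycle genes through the DREAM repressor complex. Of 15 such genes tested, 6 were called lower at 50 µM against vehicle and 0 higher, and the median log2 fold change was -0.27. All 15 had a negative log2 fold change. Ccna2, the gene of cyclin A2, fell from 168.0, 165.8, 183.0 and 201.5 CPM to 138.5, 132.0, 130.4 and 143.6 CPM (log2 fold change -0.39 ± 0.08 SE, adjusted p = 0.00568), and the mitotic kinase gene Plk1 fell by 0.44 (SE 0.10, adjusted p = 0.00924). At 10 µM edgeR, DESeq2 and limma-voom called 0 of the 15, and 0 had an unadjusted p under 0.05. All 15 were negative there too, with a median of -0.09, but both comparisons share the 4 vehicle libraries. At 50 µM against 10 µM, 13 were negative and 2 positive, with a median of -0.19, and edgeR called 5 lower and 0 higher. Of 9 tested FOXO targets other than Bcl2l11, edgeR and limma-voom called 1 lower at 50 µM against vehicle and 0 higher, and DESeq2 called 1 lower and 1 higher. The median log2 fold change was 0.09. The gene that DESeq2 alone of these tools called higher was Pik3ip1, a PI3K inhibitor gene, at between 2.30 and 2.72 CPM with vehicle and between 3.00 and 5.71 CPM at 50 µM (log2 fold change 0.70 ± 0.22 SE, edgeR adjusted p = 0.0548, DESeq2 0.0317, no filter 0.0481, all 12 libraries 0.0391, without 50 µM replicate 2 0.0457). The gene that fell was Irs2, an adaptor of the insulin receptor, with a log2 fold change of -0.41 ± 0.11 SE (adjusted p = 0.024). Without vehicle replicate 1, 2 or 3 or 50 µM replicate 2 or 3 the call of Irs2 was lost (adjusted p = 0.0687, 0.0548, 0.0739, 0.0571 and 0.0695).

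**Figure D3:**
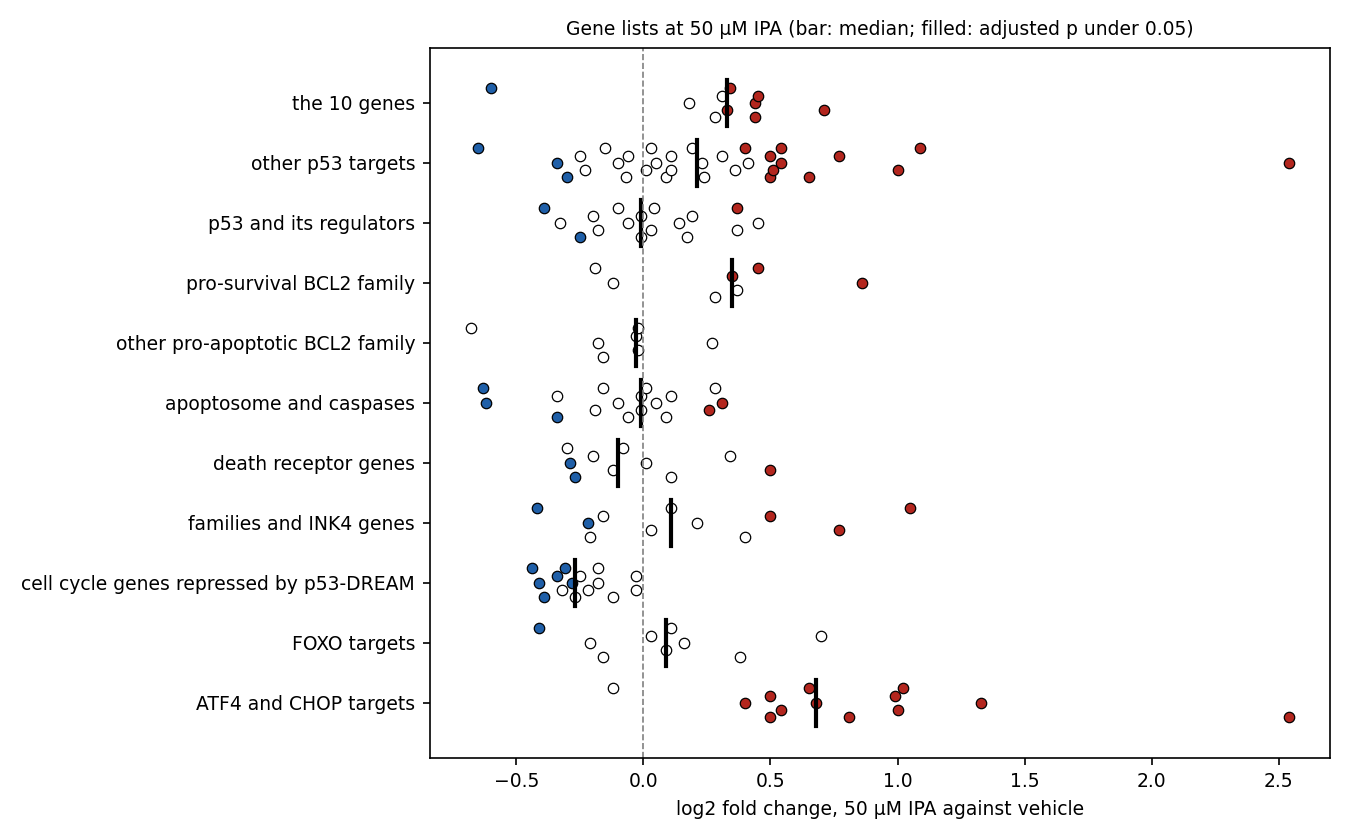
Each row is a gene list and each point a tested gene, placed by its log2 fold change at 50 µM against vehicle (horizontal axis), with red for called higher, blue for called lower and white for not called. The black bar is the median of the list. The medians run from -0.27 for the cell cycle genes to 0.68 for the ATF4 and CHOP targets, and the 10 genes have a median of 0.33.

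The genes whose pattern over the 12 libraries was most like that of a gene were sought over 12607 genes whose mean reached 1 CPM, by Pearson's r of log2 CPM. The libraries share their dose groups, so any gene that changed at 50 µM scores high, and r is given as a description. For Cdkn1a the most alike were Bhlhe40 (r = 0.971), Glb1 (0.962), Trib3 (0.956), Aqp9 (0.956) and Alas1 (0.955). For Bbc3 they were Tmem106c (0.958), Gm34084 (0.929), Pgpep1 (0.927), Plscr3 (0.912) and Mpnd (0.911), and for Bcl2l11 they were Adam17 (0.980), Gpr35 (0.972), Cnr2 (0.970), Zfp36l2 (0.962) and Atp13a2 (0.962).

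Markers of cell types also differed between the groups. Neutrophil-lineage markers had by far the highest summed level of the 11 lists. The sum of their 12 genes ranged from 22700 to 31800 CPM with vehicle, from 20800 to 24000 CPM at 10 µM and from 16200 to 22200 CPM at 50 µM. At 50 µM, 7 of the 12 were called lower than with vehicle and 0 higher. With vehicle the 6 monocyte markers summed to between 2530 and 3230 CPM. The sum was between 3670 and 4750 CPM at 10 µM and between 2210 and 2950 CPM at 50 µM. At 10 µM against vehicle, 4 of the 6 had a positive log2 fold change and 2 a negative one, and 1 (Fn1) was called higher. At 50 µM 3 of them were called lower than with vehicle and 0 higher. The 8 B cell markers summed to between 19.3 and 28.1 CPM with vehicle and between 38.6 and 61.9 CPM at 50 µM, and 5 of the 7 tested were called higher. Of 10 macrophage markers 2 were higher and 3 lower, and of 7 eosinophil markers 3 were lower. The 5 megakaryocyte markers summed to between 264 and 306 CPM with vehicle and between 336 and 387 CPM at 50 µM, with Ppbp and Pf4 called higher, and the 6 dendritic cell markers to between 27.9 and 31.5 CPM with vehicle and between 37.4 and 43.9 CPM at 50 µM, with Batf3 and Zbtb46 called higher. Of 7 mast cell and basophil markers 1 was higher and 1 lower, and of the stromal, erythroid and T and NK cell markers tested, edgeR, DESeq2 and limma-voom called 0, with 1 at an unadjusted p under 0.05 in edgeR. T and NK cell markers summed to at most 6.60 CPM and erythroid markers to at most 1.52 CPM, Gp1bb of the megakaryocyte list was at 0 in every library, and Cxcl12 of the stromal list was at 0 in all vehicle and 50 µM libraries. The neutrophil, B cell, megakaryocyte and dendritic cell sums at 50 µM did not overlap those with vehicle, and the part of any of these marker lists in the differences of the 7 called genes was not tested. The share of mitochondrial reads at 50 µM lay within the range of the vehicle libraries (0.674% to 1.28%).

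**Figure D4:**
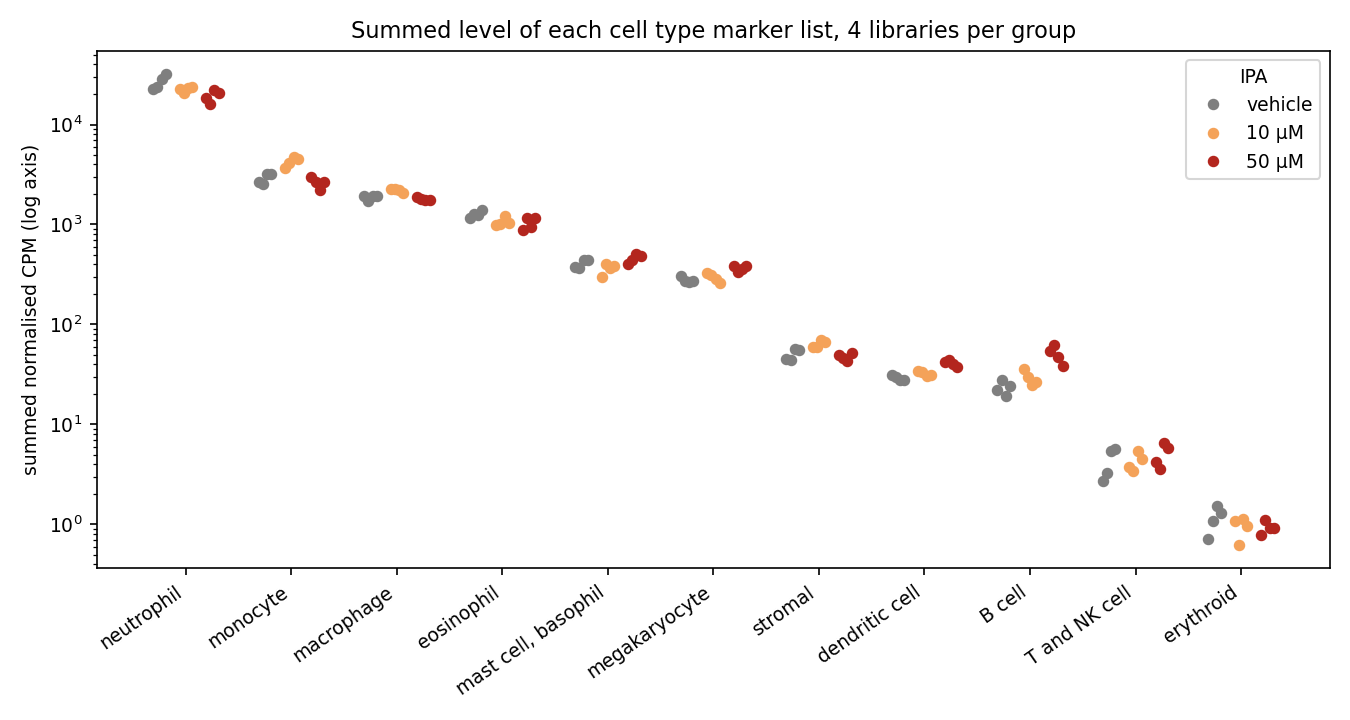
For each list of cell type markers (horizontal axis) the summed TMM-normalised CPM is plotted for every library on a log axis, in grey for vehicle, orange for 10 µM and red for 50 µM. The neutrophil sums lie between 16200 and 31800 CPM and the B cell sums between 19.3 and 61.9 CPM, and the 50 µM sums are below every vehicle sum in the first and above every other sum in the second.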

How the data were processed

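RNA of 12 bone marrow cultures was sequenced after a stranded mRNA preparation. According to the submitters' processing notes and the methods, the authors aligned reads with HISAT2 2.2.1 to mm10 (GRCm38.p6) and counted them per gene with featureCounts 2.0.1. The deposited values are these raw counts, and the strand setting is not given in the sources used here. A gene was tested where it exceeded 0.5 CPM in 2 or more of the 12 libraries (14894 of 54532). Each of the 3 pairs of groups was fitted on its 8 libraries with edgeR 4.0.16 (TMM, glmQLFit, glmQLFTest) in R 4.3.3, without a block. Values of p were adjusted by Benjamini and Hochberg's method across the tested genes, with 0.05 as the threshold, and intervals are 95% intervals of the log2 fold change. On counts simulated for 50 µM against vehicle (14894 genes), the test found 152 of 200 genes changed by 1 on the log2 scale, with 9 false calls, and made 0 calls where no gene was changed. Smaller changes, such as those of the 10 genes (at most 0.71 against vehicle, in Pmaip1), were not simulated. The share of genes found does not apply to them. The alternatives were DESeq2 1.42.0, limma-voom (limma 3.58.1), edgeR with the size factors of DESeq2, other filters (none, the CPM rule applied to the 8 libraries alone, or 10 counts in each library), all 12 libraries in the fit, a replicate block, and leaving out each library in turn. Groups came from the sample labels. The 10 genes and the gene lists were chosen with earlier results of these data known. All 10 genes are named. Of the other lists, genes past the threshold in a comparison are named, those with larger changes first, with up to 4 key genes of a list whether or not they passed, and 1 named gene is not reported here. Ddit3 was listed under 2 identifiers, and the one with reads was used. Positions and exon lengths were read from GENCODE M21 (GRCm38), and promoter windows from RefSeq. Depth lay between 20451312 and 28038612 reads, and no library was a copy of another.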

Additional observations from a re-analysis of the deposited data

Results flagged for a closer look

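In 8 of 135 groups of 4 libraries, 1 library stood apart from the other 3 by Dixon's criterion at its 95% level. Chance alone gives about 1 in 20. At 10 µM, replicate 4 had 57.76 CPM of Pmaip1 (others 50.2 to 50.69), and replicate 1 had 17.59 CPM of Sesn1 (others 14.33 to 14.65). At 50 µM, replicate 1 had 80.51 CPM of Pmaip1 (others 87.18 to 88.18), below the rest of its group but above all vehicle and 10 µM libraries. Replicate 4 of the same group had 36.26 CPM of Bcl2 (others 32.75 to 33.28), and replicate 3 had 25.08 CPM of Irs2 (others 28.63 to 29.25). Among the vehicle libraries, replicate 4 had 168.0 CPM of Bak1 (others 142.2 to 146.4) and 101.1 CPM of Trp53inp2 (others 93.55 to 94.66), of which 50 µM replicate 1 had 84.86 CPM (others 80.29 to 81.07).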

How the results depend on the processing

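For the 10 genes, the 8 settings that kept all libraries gave 237 of 240 results the same direction and the same side of the threshold. The exceptions were Bbc3 at 50 µM against vehicle with limma-voom (adjusted p = 0.0509), Gadd45a at 50 µM against 10 µM with all 12 libraries in the fit (0.0676), and Sesn1 in that comparison with the replicate block (0.0674). With 1 library left out, the number of the 10 genes called was 0 at 10 µM, 5 to 7 at 50 µM against vehicle and 6 to 9 against 10 µM.

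The count over all genes moved most at 10 µM. It was 61 and became 250 with DESeq2, 150 with no filter, 118 with all 12 libraries and 3 with the replicate block, and lay between 4 (without 10 µM replicate 2) and 122 (without vehicle replicate 4) with 1 library left out. At 50 µM against vehicle the 2010 genes became 1248 without vehicle replicate 3, 1313 without 50 µM replicate 2 and at most 2689 without vehicle replicate 4, and between 1830 (replicate block) and 2554 (DESeq2) in the settings with all libraries. Against 10 µM the 2289 genes became 1604 to 2269 with 1 library left out, and between 1972 (all 12 libraries in the fit) and 2784 (DESeq2) in the other settings. Of the genes in the 10 other lists, 0 were called at 10 µM, and 3 with DESeq2, 3 with no filter, 1 with all 12 libraries and 0 to 1 with a library left out. At 50 µM against vehicle 46 were called, and between 29 (without vehicle replicate 3) and 53 with a library left out.

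No pairing by replicate number was seen in the counts. Same-numbered libraries of different groups had correlations between -0.24 and 0.14 of their deviations from the group means, over 0.1 in 2 of 12 pairs, and 7 of 24 correlated best with their own number. Low correlations cannot show that the cultures came from separate marrow. For flow cytometry of such cultures the study used a repeated-measure ANOVA, and for the sequenced cultures it does not state a pairing. Besides the counts above, the replicate block gave 7 called genes of the 10 at 50 µM against vehicle and 8 against 10 µM, 1830 and 2200 of all genes, and 41 and 45 of the other lists.

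Signs changed for values near 0, none of them called. With a library left out, log2 fold changes at 10 µM lay between -0.10 and 0.04 for Bbc3, -0.08 and 0.02 for Pmaip1, -0.04 and 0.08 for Bax, -0.01 and 0.07 for Ccng1 and for Bcl2l11, -0.15 and 0.05 for Ddit4, -0.06 and 0.04 for Bak1, -0.11 and 0.09 for Irs2, -0.04 and 0.07 for Cdkn2c (0.00 with limma-voom, with at least 10 counts in each library and with the replicate block), -0.03 and 0.14 for Ddit3, -0.14 and 0.02 for Pik3ip1 and -0.04 and 0.26 for Trib3. For Bak1 they lay between -0.06 and 0.04 at 50 µM against vehicle and between -0.05 and 0.04 against 10 µM, and for Vldlr between -0.15 and 0.19 at 50 µM against 10 µM. The cause was not tested. Depth was not varied, and Bbc3, Sesn1 and Gadd45a, the genes with the fewest reads, had the wider intervals.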
